A study of Homo sapiens with 8 samples.

Results

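The regions described here were ChIP-seq peaks that held at least 1 WRE and at least 1 Helper site. The WRE (Wnt response element) was counted as CTTTG followed by A or T, A or T, and C or G, and the Helper site as ACCGCC or GCCGCC. The authors counted both over the whole peak. Of 23433 peaks in 6 lists, 281 held both motifs, and merging those that overlapped by any base gave 200 regions. Of these regions, 141 came from 1 such peak, 41 from 2 peaks, and 18 from 3 or more.

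The lists came from DLD-1 cells, a human colon cancer line with high endogenous Wnt signaling. The cells carried a doxycycline-inducible, FLAG-tagged dnTCF1E, a dominant negative TCF1 isoform with the E-tail. One clonal line carried the wild-type form, dnTCF1EWT, and another carried dnTCF1Emut, whose C-clamp was mutated so that it was null for C-clamp DNA binding. Each line was left without doxycycline (0 h) or given doxycycline for 2 or 9 h before ChIP with a FLAG antibody. The authors' methods describe pooled duplicates, while the sample labels name a first replicate and entries (a) and (b) for each condition. Only 1 peak list per protein and time was used here, so no list has a replicate, differences between lists could not be tested, and the protein cannot be told apart from the cell line that carried it. Intervals of shares are 95% Wilson intervals that cover counting error only.

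LEF/TCF factors carry Wnt signals to the genome. Their HMG box recognizes the WRE, and when β-catenin binds the factor, genes nearby are activated. In E-tail isoforms a second DNA binding domain, the C-clamp, recognizes the GC-rich Helper site. A dominant negative TCF lacks the β-catenin binding domain and occupies the same sites without activating them. Peaks with both motifs hold the sequence that each domain recognizes.

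The following promoters are shown because peaks with both motifs covered most of the window and a motif lies within it: the promoter of SP5, which encodes a zinc finger transcription factor and is a known Wnt target, that of C1orf133, now called SERTAD4-AS1, a non-coding RNA gene, and that of FGGY, which encodes a carbohydrate kinase. Each run is the 250 bases before the RefSeq gene start in GRCh38.p14, on the gene's own strand, with WRE and Helper matches on either strand in capitals. The peaks were called on hg19 and placed by their distance to the gene start. The gene starts of the 2 annotations were not compared.
SP5: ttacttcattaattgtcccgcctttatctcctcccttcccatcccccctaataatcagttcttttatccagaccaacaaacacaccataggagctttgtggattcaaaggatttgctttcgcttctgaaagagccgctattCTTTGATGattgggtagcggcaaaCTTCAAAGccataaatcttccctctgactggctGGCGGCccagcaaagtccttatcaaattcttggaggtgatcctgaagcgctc
C1orf133: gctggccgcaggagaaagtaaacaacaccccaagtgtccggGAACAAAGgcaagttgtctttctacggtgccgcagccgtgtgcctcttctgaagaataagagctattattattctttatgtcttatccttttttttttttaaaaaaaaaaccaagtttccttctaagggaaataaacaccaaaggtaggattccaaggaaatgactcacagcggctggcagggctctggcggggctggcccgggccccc
FGGY: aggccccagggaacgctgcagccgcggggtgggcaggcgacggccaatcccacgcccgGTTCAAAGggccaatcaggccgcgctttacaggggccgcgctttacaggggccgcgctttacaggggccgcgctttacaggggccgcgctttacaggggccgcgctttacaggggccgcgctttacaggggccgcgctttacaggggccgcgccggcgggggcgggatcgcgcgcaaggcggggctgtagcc

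The SP5 run (chr2:170715087-170715336, GRCh38.p14, + strand) held 2 WREs and 1 Helper site. The WREs lay at -109 to -102 on the gene's strand and at -85 to -78 on the opposite strand, and the Helper site at -52 to -47 on the opposite strand, counted from -1 at the base before the start. The C1orf133 run (chr1:210233886-210234135, - strand) held 1 WRE at -209 to -202 on the opposite strand. The FGGY run (chr1:59296563-59296812, + strand) held 1 WRE at -192 to -185 on the opposite strand. FGGY has 2 starts in the RefSeq table, and the window of the other start held neither motif. No Helper match lay in the C1orf133 and FGGY windows, although the peaks, which reach beyond them, each held 2. Among 35116 RefSeq promoters of the same length, 5.56% held a WRE, 35.9% a Helper site and 1.05% both.

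The share of peaks with both motifs was small in every list. It was 110 of 5585 peaks (1.97%, interval 1.64 to 2.37) for dnTCF1EWT at 2 h and 107 of 12996 (0.823%, 0.682 to 0.994) at 9 h. It was 45 of 1883 (2.39%, 1.79 to 3.18) for dnTCF1Emut at 2 h and 9 of 354 (2.54%, 1.34 to 4.76) at 9 h. In cells without doxycycline it was 10 of 1907 (0.524%, 0.285 to 0.963) in the dnTCF1EWT line and 0 of 708 in the dnTCF1Emut line. The 2 h intervals of the 2 proteins overlapped, and the dnTCF1EWT 9 h interval lay below both. This order depended on which peaks were counted. Among the 1000 highest peaks of each list the share was 8% for dnTCF1EWT at 2 h, 6.10% at 9 h and 3.20% for dnTCF1Emut at 2 h. At scores of 100 or more it was 8.10%, 9.03% and 4.15% in the same order, and for peaks of 200 to 600 bases 3.62%, 1.68% and 2.41%. At scores of 100 or more it was also 9.09% (3 of 33) in uninduced dnTCF1EWT cells. The 9 h peaks at that cut include some from the repeat array described last, where scores reached 314. The uninduced dnTCF1Emut list stood apart in base composition, with a median GC content of 6.32% (quartiles 3.49 to 11.1) against 49.7% in uninduced dnTCF1EWT cells. Part of the dnTCF1Emut 2 h list was also low in GC: the lower quartile of its peaks with neither motif was 7.33%. These peaks are included in the whole-list shares given for dnTCF1Emut below. In the dnTCF1EWT 2 h list the share also rose with peak length, from 0.317% (10 of 3151) under 200 bases to 12.3% (18 of 146) at 600 bases or more. In the dnTCF1Emut 2 h list it was 3.62% at 400 to 600 bases and 2.75% at 600 or more.

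**Figure D1:**
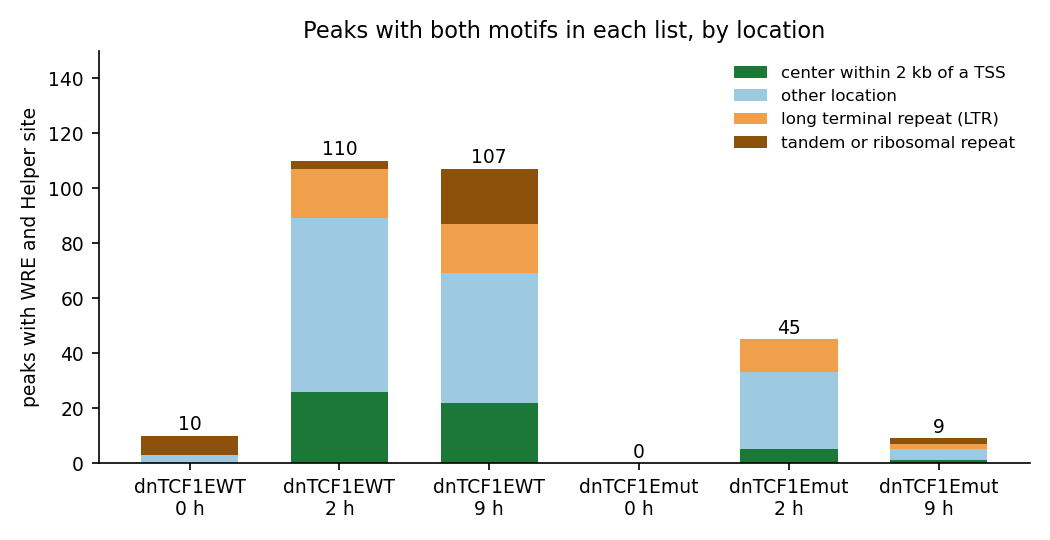
Number of peaks with a WRE and a Helper site (y axis) in each of the 6 lists (x axis), stacked by location. Each peak is counted once, with repeats taken before promoters. The segment within 2 kb of a gene start therefore holds 26, 22 and 0 dnTCF1EWT peaks at 2, 9 and 0 h, of 27, 26 and 2 in all. The dnTCF1EWT 2 h and 9 h lists hold 110 and 107 such peaks and the dnTCF1Emut 2 h list 45, while 7 of the 10 peaks of uninduced dnTCF1EWT cells lie in tandem or ribosomal repeats.

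The peak score was the MACS score, which grows with the negative log of the peak's P value and was not scaled for depth. All lists start at a score of 50. In the dnTCF1EWT 2 h list the median score was 143 (quartiles 84.0 to 247) for peaks with both motifs, 101 (63.4 to 177) for 801 peaks with a WRE and no Helper site, 73.6 (56.4 to 149) for 294 peaks with a Helper site and no WRE, and 56.7 (53.0 to 65.6) for 4380 peaks with neither. The middle ranges of the first 3 groups overlapped. The order was the same at 9 h, with medians of 91.8, 66.7, 60.3 and 56.5. In the dnTCF1Emut 2 h list the medians were 125 with both motifs, 93.1 with a WRE only and 88.0 with a Helper site only.

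High scores were common among the dnTCF1EWT peaks with both motifs. At 2 h, 15 of the 100 highest dnTCF1EWT peaks held both, 42 held a WRE without a Helper site and 18 a Helper site without a WRE. Over the whole list these shares were 1.97%, 14.3% and 5.26%. Both motifs were held by 75 of the 926 peaks with a score of 100 or more. That score was reached by 68.2% of peaks with both motifs, 50.6% with a WRE only, 36.4% with a Helper site only and 16.6% of all. At 9 h, 13 of the 100 highest held both, against 0.823% of the list. Of the 100 highest dnTCF1Emut peaks at 2 h, 3 held both and 53 a WRE without a Helper site. These were near and above the whole-list shares of 2.39% and 33.6%. Longer peaks can hold more motifs, and in each list the median score rose with length up to 400 to 600 bases. Beyond that it did not always rise: for dnTCF1EWT at 9 h it went from 124 to 93.9. For dnTCF1EWT at 2 h, peaks with both motifs had a median length of 424 bases. It was 365 with a WRE only, 254 with a Helper site only and 174 with neither. The part of length in the score order was not tested.

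The highest score belonged to an intron of CDX2, the homeobox factor that sets intestinal identity. The region (chr13:28539957-28540612, hg19, intron 1 of 2, 3221 bases inside the gene) scored 1835 for dnTCF1EWT at 2 h, where it ranked 5 in the whole list, and 438 at 9 h. It scored 136 for dnTCF1Emut at 2 h and 168 at 9 h. All 4 induced lists held it and neither 0 h list did. Its 2 h ratio between proteins, 13.5, was the largest among the regions shared at 2 h. The dnTCF1EWT peaks held 1 WRE and 2 Helper sites, the dnTCF1Emut 2 h peak held the WRE without a Helper site, and the dnTCF1Emut 9 h peak held 1 of each.

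Next among the genes of Wnt signaling came SP5, whose promoter is printed above. The peak (chr2:171571309-171572054) was centered at -176 bases from the gene start and held 3 WREs and 5 Helper sites. It scored 1213 for dnTCF1EWT at 2 h, 506 at 9 h and 153 for dnTCF1Emut at 2 h, and was not listed for dnTCF1Emut at 9 h. The dnTCF1EWT score at 2 h was 7.93 times the dnTCF1Emut score and 2.40 times its own score at 9 h.

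LGR5, the R-spondin receptor that marks crypt stem cells, had a region in its first intron (chr12:71834477-71835012, 931 bases after the start) with 1 WRE and 3 Helper sites. It scored 809 for dnTCF1EWT at 2 h and 123 at 9 h, and was in no dnTCF1Emut list. AXIN2, a scaffold of the β-catenin destruction complex and a feedback target of the pathway, had a CpG island region 483 bases after its start (chr17:63557090-63557425) with 1 WRE and 3 Helper sites in 336 bases. It scored 206 at 2 h and 79.1 at 9 h for dnTCF1EWT, with no dnTCF1Emut peak. LRP5, a Wnt co-receptor, was an exception to the fall from 2 to 9 h, with scores of 176 at 2 h and 272 at 9 h in an intron 8769 bases after the start, again for dnTCF1EWT only.

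The remaining members of the pathway were in 1 list each. NOTUM, a secreted enzyme that inactivates Wnt ligands, had a peak at -7011 bases from its start with 4 Helper sites in 252 bases, which scored 87.2 for dnTCF1EWT at 2 h. TLE3, a Groucho co-repressor that binds TCFs, had a promoter peak at -628 bases that scored 100 for dnTCF1EWT at 9 h. In all, 6 of 82 listed Wnt pathway genes were nearest to a member region, and these regions made up 3% of the 200. Over all listed peaks, counted before merging, 0.743% were nearest to a gene of this list. Of the 6 regions, 5 were listed for dnTCF1EWT at 2 h, 5 at 9 h and 1 for dnTCF1Emut at 2 h.

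Of 43 genes listed as Wnt targets or crypt genes, 5 were nearest to a member region: CDX2, MYC, RHOB, GADD45B and RHOU. MYC, the proliferation factor, had a region 7022 bases after its start that scored 302 for dnTCF1EWT and 86.1 for dnTCF1Emut at 2 h and was in neither 9 h list. RHOB, a small GTPase, had an intergenic region 45129 bases away (chr2:20691681-20692248) that scored 656 and 73.1 for dnTCF1EWT at 2 and 9 h and 156 for dnTCF1Emut at 2 h. GADD45B, a stress response gene, had a CpG island region 67664 bases from its start, within an intron of another gene, that scored 142 for dnTCF1EWT at 2 h and was in no other list. RHOU contributed 15 regions, all in a repeat array described last. With the array, regions at genes of this list were 9.5% of the 200, and without it they were 4 regions. Of all listed peaks, counted before merging and with the array included, 0.939% lay at a gene of this list. None of 39 BMP and TGF-beta genes was nearest to a member region, while 0.457% of all listed peaks lay nearest to one.

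**Figure D2:**
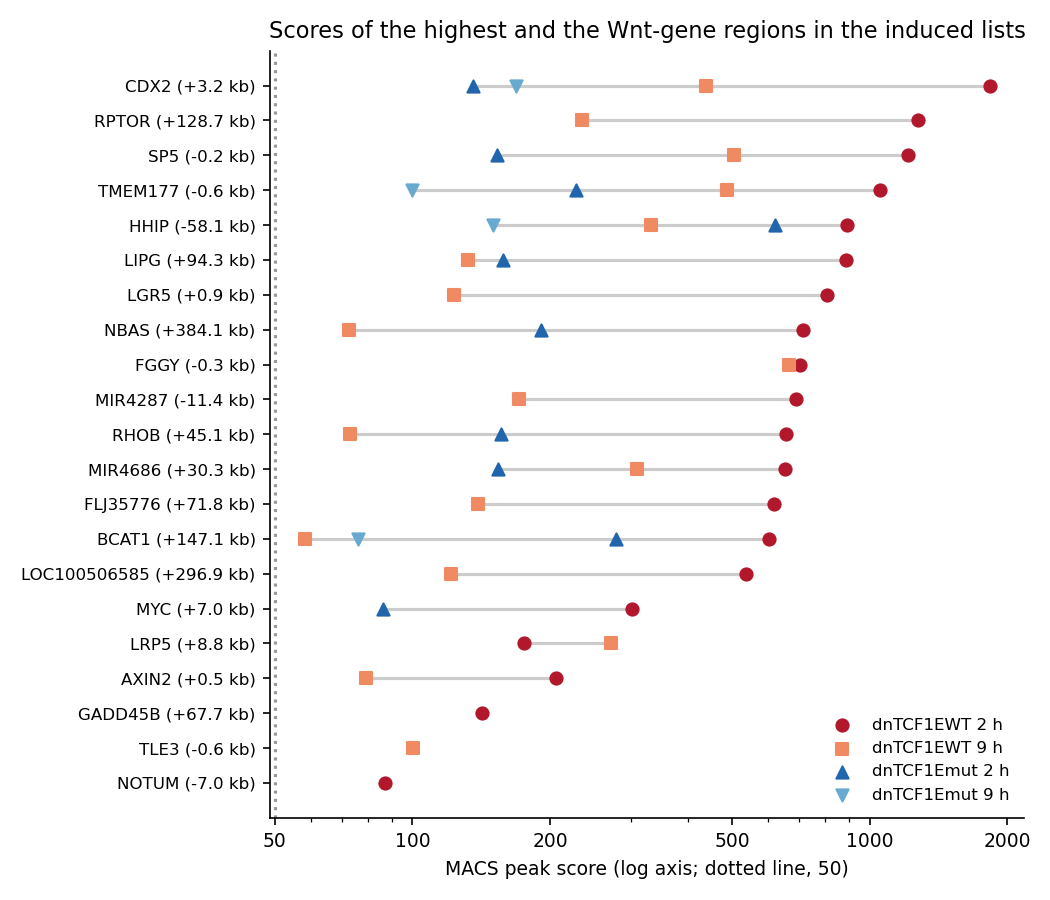
MACS scores (x axis, log scale) of the 15 highest regions and the regions at Wnt genes outside the chromosome 1 array (rows, with the distance of the peak center from the gene start in kb). Circles and squares are dnTCF1EWT at 2 h and 9 h, and triangles are dnTCF1Emut at 2 h (up) and 9 h (down); the 2 h dnTCF1EWT score is the highest of each of the 15 top regions, from 536 to 1835, and LRP5 is higher at 9 h (272) than at 2 h (176).

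Away from Wnt genes, high regions lay in introns, between genes and at promoters. RPTOR, the mTORC1 subunit, had a region deep in an intron (chr17:78646981-78647733) that scored 1278 at 2 h and 235 at 9 h for dnTCF1EWT and was not listed for dnTCF1Emut. The promoter of TMEM177, a mitochondrial protein gene, was in all 4 induced lists: its region (chr2:120435841-120436518), centered at -564 bases with 5 WREs and 1 Helper site, scored 1053, 488, 228 and 99.9 for dnTCF1EWT at 2 and 9 h and dnTCF1Emut at 2 and 9 h. An intergenic region near LIPG, the endothelial lipase gene, scored 889 and 132 for dnTCF1EWT and 158 for dnTCF1Emut at 2 h. An intron of NBAS scored 717, 72.7 and 191 in the same order, and an intergenic region near BCAT1, a branched-chain amino acid transaminase, 603, 58.1 and 279.

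Regions were ranked by the score of the peaks that held both motifs themselves, in any list, and all of the 15 highest had that score in the dnTCF1EWT 2 h list. Of these 15, 9 were also listed for dnTCF1Emut at 2 h. Over all dnTCF1EWT 2 h peaks with a score of 200 or more, 205 of 410 (50%) overlapped a dnTCF1Emut 2 h peak. Among those with a WRE only, 62.9% did. That cut lies below the lowest score of the 15 regions, 536, so these shares are not for like scores. The FGGY promoter region (chr1:59762089-59762645) scored 704 at 2 h and 667 at 9 h for dnTCF1EWT and had no dnTCF1Emut peak. MIR4287 (692 and 171) and FLJ35776 (619 and 139) were likewise nearest to regions in both dnTCF1EWT induced lists alone, and a region near MIR4686 scored 653 and 310 for dnTCF1EWT and 154 for dnTCF1Emut at 2 h.

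Of the 200 regions, 125 overlapped a dnTCF1EWT 2 h peak, 127 a dnTCF1EWT 9 h peak, 48 a dnTCF1Emut 2 h peak and 11 a dnTCF1Emut 9 h peak. A listed peak did not always hold both motifs itself: 15 of the 125, 21 of the 127, 3 of the 48 and 2 of the 11 were peaks that missed 1 or both motifs. In terms of induced lists, 150 regions were listed for dnTCF1EWT only, 13 for dnTCF1Emut only and 37 for both. The lists differ in length, with 5585 and 12996 dnTCF1EWT peaks against 1883 and 354 dnTCF1Emut peaks, so these counts do not compare the proteins at equal list size. The most common pattern was a single list, with 52 regions in the dnTCF1EWT 9 h list alone and 48 in the 2 h list alone, followed by 40 regions in both. Listing for 1 protein or time was also usual over all peaks. Of all dnTCF1EWT 2 h peaks, 9.44% overlapped a dnTCF1Emut 2 h peak and 14.9% a dnTCF1EWT 9 h peak. Of all dnTCF1Emut 2 h peaks, 27.9% overlapped a dnTCF1EWT 2 h peak.

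Peaks were next followed from list to list. Of the 110 dnTCF1EWT 2 h peaks with both motifs, 56 (50.9%, 41.7 to 60.1) overlapped a dnTCF1EWT 9 h peak, where 14.9% of all 2 h peaks did. The share was 31.8% (28.7 to 35.1) for peaks with a WRE only, 34.4% (29.2 to 40) with a Helper site only and 9.61% with neither. It depended on score: among peaks with both motifs it was 28.6% (6 of 21) at scores of 50 to 67 and 79.5% (31 of 39) at 200 or more. In this top range the WRE-only share was 69.7% (62.6 to 75.9), within the interval of 64.5 to 89.2 for peaks with both motifs.

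The dnTCF1Emut 2 h list gave another order. Of the same 110 peaks, 25 (22.7%, 15.9 to 31.4) overlapped a dnTCF1Emut 2 h peak, where 9.44% of all dnTCF1EWT 2 h peaks did. For peaks with a WRE only the share was 34.3% (31.1 to 37.7), and with a Helper site only it was 7.14% (4.72 to 10.7). At scores of 200 or more, the shares were 41.0% (16 of 39, 27.1 to 56.6) with both motifs, 62.9% (112 of 178, 55.6 to 69.7) with a WRE only and 24.2% (16 of 66, 15.5 to 35.8) with a Helper site only. At scores of 100 to 200 they were 16.7% (6 of 36), 39.6% (90 of 227) and 9.76% (4 of 41). The peaks with both motifs thus lay between the 2 single-motif classes in each of these ranges, and their interval overlapped the WRE-only interval over all scores and at 200 or more but not at 100 to 200. In the score ranges below 100 the intervals also overlapped. GC content moved with these classes: the median over all dnTCF1Emut 2 h peaks was 37.1%, against 48.9% for dnTCF1EWT at 2 h, so the lists as a whole differed in base composition, and its part in the shares was not tested.

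**Figure D3:**
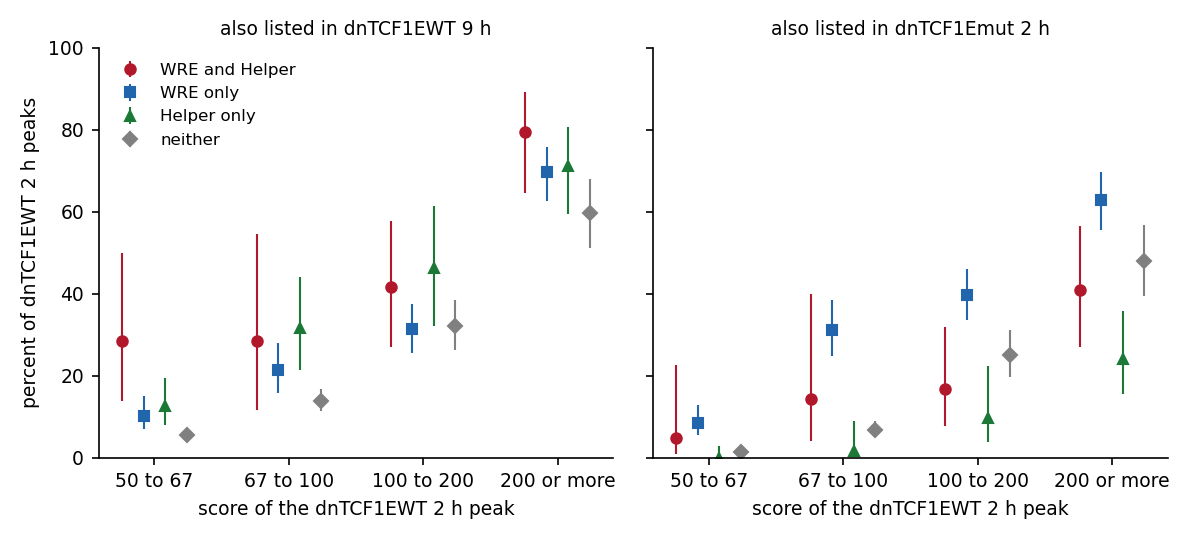
Percent of dnTCF1EWT 2 h peaks (y axis) that overlap a dnTCF1EWT 9 h peak (left) or a dnTCF1Emut 2 h peak (right), by the score of the 2 h peak (x axis) and by motif class, with 95% Wilson intervals. At scores of 200 or more, peaks with both motifs are at 79.5% on the left and 41.0% on the right, and peaks with a WRE only at 69.7% and 62.9%.

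Read from the other side, 32 of the 45 dnTCF1Emut 2 h peaks with both motifs (71.1%, 56.6 to 82.3) overlapped a dnTCF1EWT 2 h peak, where 27.9% of all dnTCF1Emut 2 h peaks did. The share was 45.4% (41.6 to 49.3) with a WRE only and 56.8% (40.9 to 71.3) with a Helper site only. A dnTCF1EWT 9 h peak overlapped 21 of the 45 (46.7%), where it did so for 13.6% of the whole dnTCF1Emut 2 h list. Of the 107 dnTCF1EWT 9 h peaks with both motifs, 49 (45.8%) overlapped a 2 h peak of the same protein, where 6.47% of all 9 h peaks did. The share was 31.9% with a WRE only and 18% with a Helper site only. At 9 h scores of 200 or more it was 80% with both motifs, 80% with a WRE only and 81.8% with a Helper site only. Within dnTCF1Emut, 8 of the 45 peaks (17.8%, 9.29 to 31.3) overlapped a 9 h peak, where 12.4% of all its 2 h peaks did.

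Scores were compared at shared positions next. Among the 25 dnTCF1EWT 2 h peaks with both motifs that overlapped a dnTCF1Emut 2 h peak, dnTCF1EWT had the higher score at 21 (84.0%, 65.3 to 93.6), where it did so at 63.6% of all 527 shared peaks. The log2 ratio of the scores was 1 or more at 18 of the 25 (31.7% of all shared peaks) and -1 or less at 2 (10.4% of all). The median log2 ratio was 1.46 (quartiles 0.87 to 2.07), against 0.48 for peaks with a WRE only, 1.22 with a Helper site only and 0.15 with neither. These values were not matched for score. At dnTCF1EWT scores of 200 or more, dnTCF1EWT was higher at 93.8% (15 of 16) of shared peaks with both motifs. It was higher at 93.8% with a WRE only, 93.8% with a Helper site only and 93.2% of all. The median log2 ratios there were 1.90, 1.17, 1.81 and 1.21. For both motifs it was higher at 6 of 6 at 100 to 200, 0 of 2 at 67 to 100 and 0 of 1 at 50 to 67. Scores were not scaled for depth, so a ratio mixes the occupancy of a site with the depth of the libraries.

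The peaks above were chosen by the motifs in the dnTCF1EWT 2 h peak, whose score was then compared. When a region counted as shared whichever peak held both motifs, 35 regions were shared at 2 h. At 25 of them dnTCF1EWT had the higher score (71.4%, 54.9 to 83.7), and the median log2 ratio was 1.11. That interval holds the 63.6% found over all shared peaks. The largest ratios were at CDX2 (3.76), SP5 (2.99) and LIPG (2.49). PXDN, a peroxidase gene, had a nearby region with a dnTCF1EWT score of 1039 and a dnTCF1Emut score of 223 at 2 h, in which only the dnTCF1Emut 2 h peak held a Helper site. The lowest ratios were at DYSF (-1.81, scores 57.7 and 203), ADD3 (-1.19, 205 and 467) and NR4A3 (-0.91, 69.5 and 131). The ADD3 region was also listed for dnTCF1Emut at 9 h, with a score of 119, and not for dnTCF1EWT at 9 h.

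From 2 to 9 h, dnTCF1EWT scores mostly fell at these sites. The 2 h score was the higher at 40 of the 56 shared peaks (71.4%, 58.5 to 81.6), where it was the higher at 66.1% of all 833 shared peaks. The log2 ratio of 2 h to 9 h was 1 or more at 28 (31.2% of all shared peaks) and -1 or less at 5 (5.04% of all), with a median of 0.97. Over the 65 regions shared by either peak, the 2 h score was the higher at 45. Rank percentiles within each list turned this around: the 2 h percentile was the higher at 26 of the 65 regions (40%). The percentile depends on list length, 5585 peaks at 2 h and 12996 at 9 h. A given rank beyond the first is thus a higher percentile at 9 h. Percentiles were not compared over all shared peaks, so this share is not a result about these sites. The steepest falls were at BCAT1 (log2 ratio 3.38), NBAS (3.30) and RHOB (3.17). UHRF1, a gene for the maintenance of DNA methylation, went the other way, with scores of 98.7 at 2 h and 402 at 9 h in an intron 683 bases after its start.

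For dnTCF1Emut, 8 of 8 shared peaks with both motifs had the higher score at 2 h, where 88.5% of all 234 shared peaks did. The log2 ratio was 1 or more at 7 of them (53.4% of all shared peaks) and -1 or less at none (0.855% of all). Over the 9 regions shared by either peak, the 2 h score was the higher at 8. The exception was CDX2, with scores of 136 at 2 h and 168 at 9 h.

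**Figure D4:**
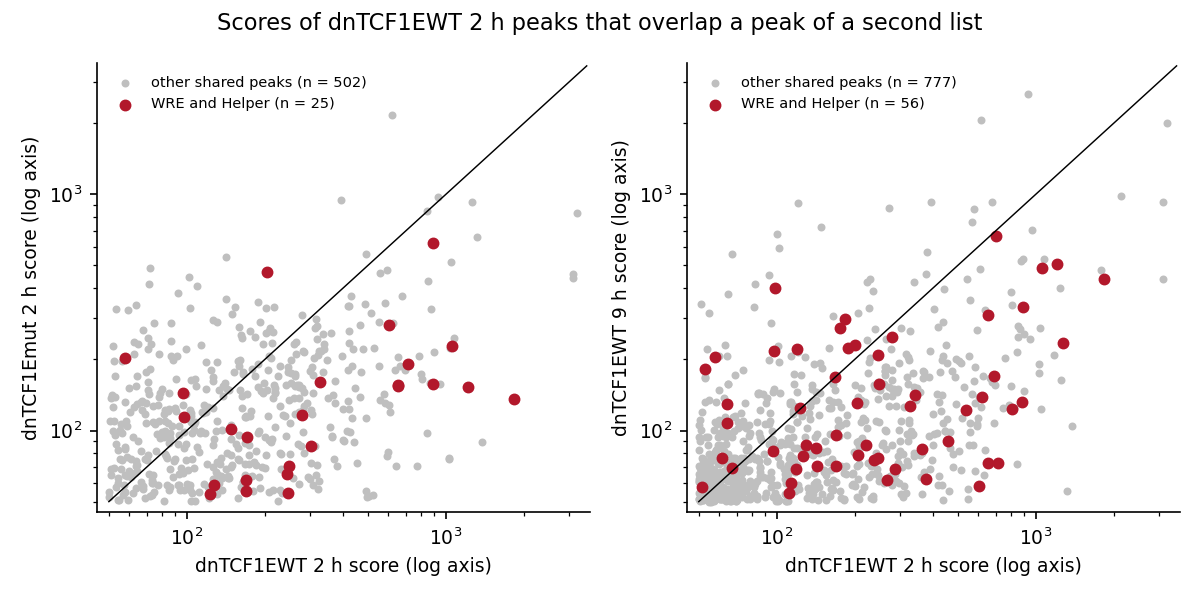
Score of each dnTCF1EWT 2 h peak (x axis, log scale) against the score of the dnTCF1Emut 2 h peak (left) or dnTCF1EWT 9 h peak (right) that it overlaps (y axis, log scale), with the line of equal scores. Red points are peaks with both motifs, of which 21 of 25 lie below the line on the left and 40 of 56 on the right.

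Promoter peaks were then counted in each motif class. With a promoter taken as 2 kb either side of a gene start, 27 of the 110 dnTCF1EWT 2 h peaks with both motifs lay in one (24.5%, 17.5 to 33.4), where 5.96% of all 2 h peaks did. The share was 23.5% (19.0 to 28.6) for peaks with a Helper site only, 4.49% (3.26 to 6.16) with a WRE only and 4.59% (4.01 to 5.25) with neither. At 9 h it was 26 of 107 (24.3%, 17.2 to 33.2), where 5.15% of all peaks did, and 19.6% with a Helper site only. For dnTCF1Emut at 2 h it was 5 of 45 (11.1%, 4.84 to 23.5), where 2.66% of all peaks did. At 9 h it was 1 of 9 for dnTCF1Emut (2.26% of all peaks), and without doxycycline 2 of 10 for dnTCF1EWT (2.83% of all peaks). At 2 h the dnTCF1EWT interval of the peaks with both motifs overlapped that of the Helper-only peaks and not that of the WRE-only peaks, and the interval of the dnTCF1Emut peaks overlapped that of dnTCF1EWT.

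By region, 42 of 200 (21%, 15.9 to 27.2) had a center within 2 kb of a gene start, and 129 (64.5%) lay more than 10 kb away. HOMER annotated 102 regions as intergenic, 78 as intronic, 14 as promoter, 3 as transcript ends, 2 as exonic and 1 as a non-coding transcript. Of the 42 promoter regions, 28 were listed for dnTCF1EWT at 2 h, 30 at 9 h and 5 for dnTCF1Emut at 2 h, and 37 were listed for induced dnTCF1EWT without any dnTCF1Emut peak. Over all regions this held for 150 of 200, and the dnTCF1Emut lists are the shorter ones.

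Among these promoter regions, LEF1-AS1, the antisense neighbor of the Wnt effector LEF1, had a CpG island peak 1262 bases after its start with 2 WREs and 2 Helper sites that scored 278 for dnTCF1EWT at 2 h and was in no other list. SLC16A1, the monocarboxylate transporter MCT1, scored 200 and 230 for dnTCF1EWT at 2 and 9 h, and C1orf133 scored 245 and 210, both without a dnTCF1Emut peak. NAMPT, which makes a precursor of NAD, scored 183 and CSNK1A1, the casein kinase of the β-catenin destruction complex, scored 150, both for dnTCF1EWT at 2 h only. IFITM2, an interferon-induced gene, was in both dnTCF1EWT induced lists (248 and 157) and in the dnTCF1Emut 2 h list (70.5). MIR10A, a microRNA gene of the HOXB cluster, had its motif-bearing peak in the dnTCF1Emut 2 h list (132.9), while the overlapping dnTCF1EWT 9 h peak (79.5) held neither motif.

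More promoter regions were listed for dnTCF1EWT. At 2 h they included GALNT8 (137), ATF1 (135), CDC14B (107), MBOAT2 (57.1) and BAZ2B (57.1), and at 9 h HOXA-AS3 (114), ZNF219 (74.8), CALM2 (66.8), CUEDC2 (62.5) and ST6GALNAC1 (56.6), each in 1 dnTCF1EWT list only. COLEC12 (266 at 2 h, 61.9 at 9 h), FKBP14 (189 and 223) and NUDT3 (52.7 and 132) were in both dnTCF1EWT induced lists, with both motifs in 1 peak of the pair. WSB2, PDP2, KIF25, ARHGEF5, NSUN5P1 and NSUN5P2 were in 1 dnTCF1EWT list each, with scores from 50.1 to 61.5. LOC100506025 was the promoter region listed for dnTCF1Emut at 2 h only (127).

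The GC content of the peaks was compared between the motif classes. In the dnTCF1EWT 2 h list the median was 49.3% with both motifs, 42.3% with a WRE only, 52.4% with a Helper site only and 48.9% over all peaks. At 9 h it was 50.8% with both. In the dnTCF1Emut 2 h list it was 43.8% with both, 39.4% with a WRE only and 40.7% with a Helper site only. The peaks with both motifs were thus between the single-motif classes for dnTCF1EWT and above both for dnTCF1Emut. At 2 h the order statistic interval of the median with both motifs ran from 47.5 to 52.3% in the dnTCF1EWT list and from 42.3 to 45% in the dnTCF1Emut list. These intervals did not overlap, but they cover only the spread among peaks within a list. No list has a replicate, so a difference between the proteins was not tested. The medians over all peaks of the lists, given above, differed in the same direction. A Helper site, which the choice of these peaks requires, holds at least 5 G or C bases in 6.

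Most regions had few copies of the motifs. In the highest peak of each region, 106 regions had 1 WRE and 1 Helper site, 57 had 2 or more Helper sites and 13 had 2 or more of each. In the dnTCF1EWT 2 h list, 34 of 110 peaks (30.9%) held 2 or more Helper sites, against 29.3% of the peaks with a Helper site only. In the dnTCF1Emut 2 h list it was 4 of 45 (8.89%), against 8.11%. The median dnTCF1EWT 2 h score was 138 (quartiles 77.1 to 204) for 76 peaks with 1 Helper site, 237 (105 to 364) for 21 peaks with 2 and 206 (129 to 536) for 13 peaks with 3 or more, whose quartile ranges overlapped. It was 127 for 82 peaks with 1 WRE, 209 for 20 peaks with 2 and 648 for 8 peaks with 3 or more, and median peak length rose along this series from 385 to 480 and 638 bases.

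A peak of 3 or more Helper sites occurred in 29 regions, of which 10 were in the chromosome 1 array. Of 15 such regions outside the array that were not listed at 0 h, 13 were in the dnTCF1EWT 2 h list. SP5 and a region near MIR4686, 2 in all, were in the dnTCF1Emut 2 h list. No dnTCF1Emut 2 h peak with both motifs held more than 2 Helper sites, so none could bring a region into this group. The 2 counts therefore do not compare the proteins. Over all dnTCF1EWT 2 h peaks, 9.44% overlapped a dnTCF1Emut 2 h peak. The 15 regions were GC-rich, from 50.8 to 74.2%. The most Helper sites of these, 9, lay in a region in an intron of a chromosome 7 gene (chr7:157943784-157944648, nearest start LOC100506585), which scored 536 and 122 for dnTCF1EWT at 2 and 9 h. NAP1L4, a histone chaperone gene, had 7 Helper sites in 342 bases of a CpG island 476 bases after its start, with scores of 127 and 78.1. An intron of EGFR, the epidermal growth factor receptor, had 3 Helper sites and 1 WRE and scored 147 for dnTCF1EWT at 2 h only. LGR5, AXIN2, NOTUM and GADD45B, described above, belong to the same group of 15.

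Repeats made up part of the regions. The center of 32 regions lay in a long terminal repeat (LTR), the promoter sequence of an endogenous retrovirus, and 22 of these were of the ERVK family. In the dnTCF1EWT 2 h list, 16.4% of peaks with both motifs lay in an LTR. The share was 15.9% with a WRE only, 14.6% with a Helper site only and 11.8% over all peaks. In the same order it was 16.8%, 22.7%, 9.02% and 6.26% for dnTCF1EWT at 9 h. For dnTCF1Emut at 2 h it was 26.7%, 16%, 10.8% and 10.6%. MER11A, an ERVK LTR, gave 11 regions and LTR14C gave 5. In the dnTCF1Emut 2 h list 7 of 45 peaks with both motifs (15.6%) lay in MER11A, where 2.87% of the whole list did. In the dnTCF1EWT lists it was 5 of 110 (4.55%, whole list 0.662%) at 2 h and 8 of 107 (7.48%, whole list 0.577%) at 9 h. Peaks with a WRE and no Helper site lay in MER11A at 6.96% for dnTCF1Emut at 2 h and at 2.62% and 7.25% for dnTCF1EWT at 2 and 9 h, so the 9 h shares of these classes were close. The MER11A copy at -58147 bases from HHIP, a Hedgehog inhibitor gene, was in all 4 induced lists, with scores of 891, 332, 623 and 150 for dnTCF1EWT at 2 and 9 h and dnTCF1Emut at 2 and 9 h. Of the 54 MER11A peaks in the dnTCF1Emut 2 h list, 51 held a WRE and 7 a Helper site. Copies of a repeat share sequence, so they are not independent sites, and how the reads were placed among them was not tested. The DYSF region, where dnTCF1EWT at 2 h was lowest against dnTCF1Emut, also lay in an ERVK LTR.

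Tandem and ribosomal repeats formed the other group. An array of 16 member regions (chr1:228744201-228782539, hg19) lay over 38.3 kb upstream of and across the start of a non-coding RHOU transcript and the pseudogene DUSP5P. In the RefSeq table of GRCh38.p14, 16 of the 17 numbered 5S ribosomal RNA genes on chromosome 1 lie within 50 kb upstream of RHOU, with a median spacing of 2241 bases. The peaks with both motifs there were long (433 to 2768 bases), GC-rich (62.4 to 70.3%) and held up to 12 Helper sites, mostly beside 1 WRE. The array held 16 such peaks at 9 h (scores 57.5 to 314), 2 at 2 h (52.8 and 64.3) and 4 at 0 h (50.3 to 80.4) in the dnTCF1EWT lists, and no peak in any dnTCF1Emut list. At 9 h these were 15% of all dnTCF1EWT peaks with both motifs.

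The 11 regions listed without doxycycline were all in the dnTCF1EWT 0 h list. Of these, 4 were in the array, 4 had an SSU or LSU ribosomal RNA repeat or a satellite at their center, and 3 had neither. The highest 0 h score of the whole list, 214, was at such a ribosomal repeat near LINC00273, which scored 128 at 9 h. The next of the 11, at an intergenic pair of regions near LOC650226 on chromosome 7, scored 161 and 66.7 at 0 h and 309 and 209 at 9 h. A ribosomal repeat near HFM1 scored 145 at 0 h and 74.7 at 9 h. Each of the 11 was also in the dnTCF1EWT 9 h list, and outside the array none was nearest to a gene of the Wnt lists. At chromosome 5, 3 regions near SMN1, NAIP and LOC647859, named here after their values were seen, had the same length and the same score of 197 in the dnTCF1EWT 9 h list, and counting them as 1 left 198 regions.

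**Figure D5:**
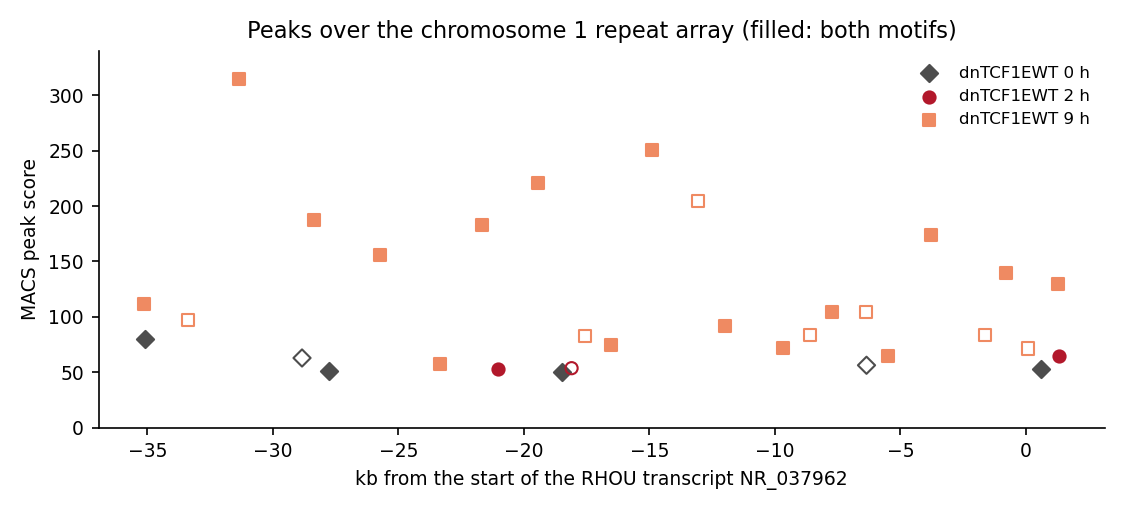
Score (y axis) of each peak over the chromosome 1 repeat array against its distance in kb from the start of the RHOU transcript NR_037962 (x axis), for dnTCF1EWT at 0, 2 and 9 h. Filled symbols hold both motifs; the 9 h peaks reach 314, while the 0 h and 2 h peaks with both motifs stay between 50.3 and 80.4.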

How the data were processed

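ChIP-seq peaks of FLAG-dnTCF1EWT and FLAG-dnTCF1Emut in DLD-1 cells were analysed as deposited. Per the labels, the submitters' processing notes name CASAVA 1.8.2, Bowtie2 2.0.0, MACS 1.3, HOMER 3.16 and hg19. The authors' methods state that duplicates were pooled, and the labels name a first replicate; 1 list per condition was used. The deposited peak score is the MACS score, not scaled for depth. The deposited GC and CpG values are fractions of the peak's bases, printed here as percent. Read depth is not given in the sources used here. The deposited interval files held the same positions and scores for all 23433 peaks.

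Peaks with 1 or more WRE and 1 or more Helper site were selected in Python 3.11.15 with pandas 2.3.3 and SciPy 1.17.1, merged by any shared base, and looked up in each list by any overlap, taking the highest overlapping score. Merging, overlap and motif searches were checked on simulated data. Shares have Wilson intervals. No test between lists was run, since each condition is 1 list. Named regions were the 15 highest, those at listed genes, those within 2 kb of a gene start in an induced list, those with 3 or more Helper sites, and the extremes of the ratios and of the 0 h list. The members and gene lists were chosen with earlier results of these data known. The alternatives concerned overlap, score, length, repeats, promoter width and 0 h peaks. Symbols were matched to RefSeq through gene symbols and synonyms.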

Additional observations from a re-analysis of the deposited data

How the results depend on the processing

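No paired analysis was possible because each condition was a single list. Of 82 recomputed values, 56 stayed within 1.5 times or within the interval of the reported value, 25 moved and 1 reversed. The number of regions was 121 with a score of 100 or more and 57 with 2 or more Helper sites. The percent of peaks with both motifs for dnTCF1EWT was 8% at 2 h and 6.10% at 9 h in the top 1000 peaks, and 3.20% for dnTCF1Emut at 2 h. With a score of 67 or more it was 1.94%, 4.94% and 2.87% for dnTCF1EWT at 0, 2 and 9 h, and with 100 or more 9.09%, 8.10% and 9.03%, and 4.15% for dnTCF1Emut at 2 h. For peaks of 200 to 600 bases it was 0.143%, 3.62% and 1.68% for dnTCF1EWT. Without tandem and ribosomal repeats, an alternative chosen after seeing the data, it was 0.162% at 0 h and 0.673% at 9 h, and 3 regions were listed at 0 h, or 6 with a score of 67 or more. The share of dnTCF1EWT 2 h peaks found at 9 h was 61.3% for scores of 100 or more. At 2 h dnTCF1EWT outscored dnTCF1Emut at a share of shared regions that was 85.7% by rank percentiles and 84% where the dnTCF1EWT peak held both motifs. The share with the higher 2 h than 9 h score reversed to 40% by rank percentiles. Both shifts by rank percentiles were toward the longer list, where a given rank beyond the first is a higher percentile. The promoter share was 7% by HOMER's promoter annotation and 27.5% within 5 kb. The median GC at 9 h was 48.5% for peaks of 200 to 600 bases. The cause of these changes was not tested. Motifs within 150 bases of peak centers and motif positions in the regions were not run, since they need the hg19 genome. Scores are not scaled for depth, and with 1 list per condition no difference between conditions has a replicate check.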
